A study of Canis lupus familiaris with 9 samples.

Results

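Insulin-like growth factor (IGF) transcripts were examined in dog skeletal muscle through 9 genes: the ligands IGF1 and IGF2, the receptors IGF1R and IGF2R, and the binding proteins IGFBP3, IGFBP4, IGFBP5, IGFBP6 and IGFBP7. They were chosen by name from the 15115 genes that the array's annotation gives as the only symbol of a probe set. Together they have 21 of the array's 42924 probe sets other than controls, and each gene is given by the probe set with the highest mean over the 9 arrays, with the others beside it. The muscle came from intact female beagles, 4 years old, after 24 weeks of feeding without restriction (ad libitum, 5 dogs: 2, 5, 6, 7 and 8) or in the amount that held baseline body weight (control, 4 dogs: 1, 3, 4 and 9). Both groups ate 1 commercial diet, feeding was assigned at random, and the dogs were fasted overnight before sampling. Each dog is a separate animal with 1 array.

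IGF1 and IGF2 are small peptides related to insulin that act on growth, differentiation and protein balance of many tissues. IGF1 reaches muscle from the liver through the blood and is also made within the muscle, where it promotes growth of fibres and the activity of their precursor cells. Its receptor, IGF1R, is a tyrosine kinase that signals through IRS adaptors to PI3K and AKT and through SHC to RAS and ERK. IGF2R, which is also the mannose 6-phosphate receptor that carries enzymes to lysosomes, binds IGF2 and takes it up for degradation. The binding proteins hold the ligands outside the cell and can restrain or prolong their action. Transcript levels say nothing about circulating IGF1, which was not measured here.

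Values are GCRMA log2 values as deposited, so a difference of 1 is a doubling. Probe sets above log2 4 on at least 4 arrays were tested, 18394 in all, and array pairs correlated across them at r = 0.934 to 0.981. All 9 muscle fibre markers measured were above log2 4, with a mean between 14.26 and 15.52 in ad libitum dogs and between 15.14 and 15.46 in control dogs. Of the 9 IGF system genes, 8 passed the filter through their main probe set and IGF2 did not. Of their 21 probe sets, 15 passed.

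No IGF system gene passed the test for a difference between the feeding groups. By limma, 0 of the 8 tested genes passed a p of 0.05 adjusted by Benjamini-Hochberg over all 18394 probe sets, and the share of all probe sets called was 0%. At an unadjusted limma p under 0.05, 1 of the 8 had a lower level in ad libitum muscle, IGF1R, and 0 a higher one. Of all probe sets 5.91% had such a p, 2.21% lower and 3.71% higher. The means of IGF1, IGF2R, IGFBP3, IGFBP4, IGFBP6 and IGFBP7 were higher in ad libitum muscle and those of IGF1R and IGFBP5 were lower, so 6 of 8 were higher, against 48.4% of all probe sets. The median log2 difference of the 8 genes was 0.37, against -0.0021 for the 7534 genes tested by 1 probe set each. No main probe set had groups that did not overlap, which 1.44% of all probe sets had (0.739% higher and 0.696% lower in ad libitum muscle). The differences are therefore given as values with their intervals.

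**Figure D1:**
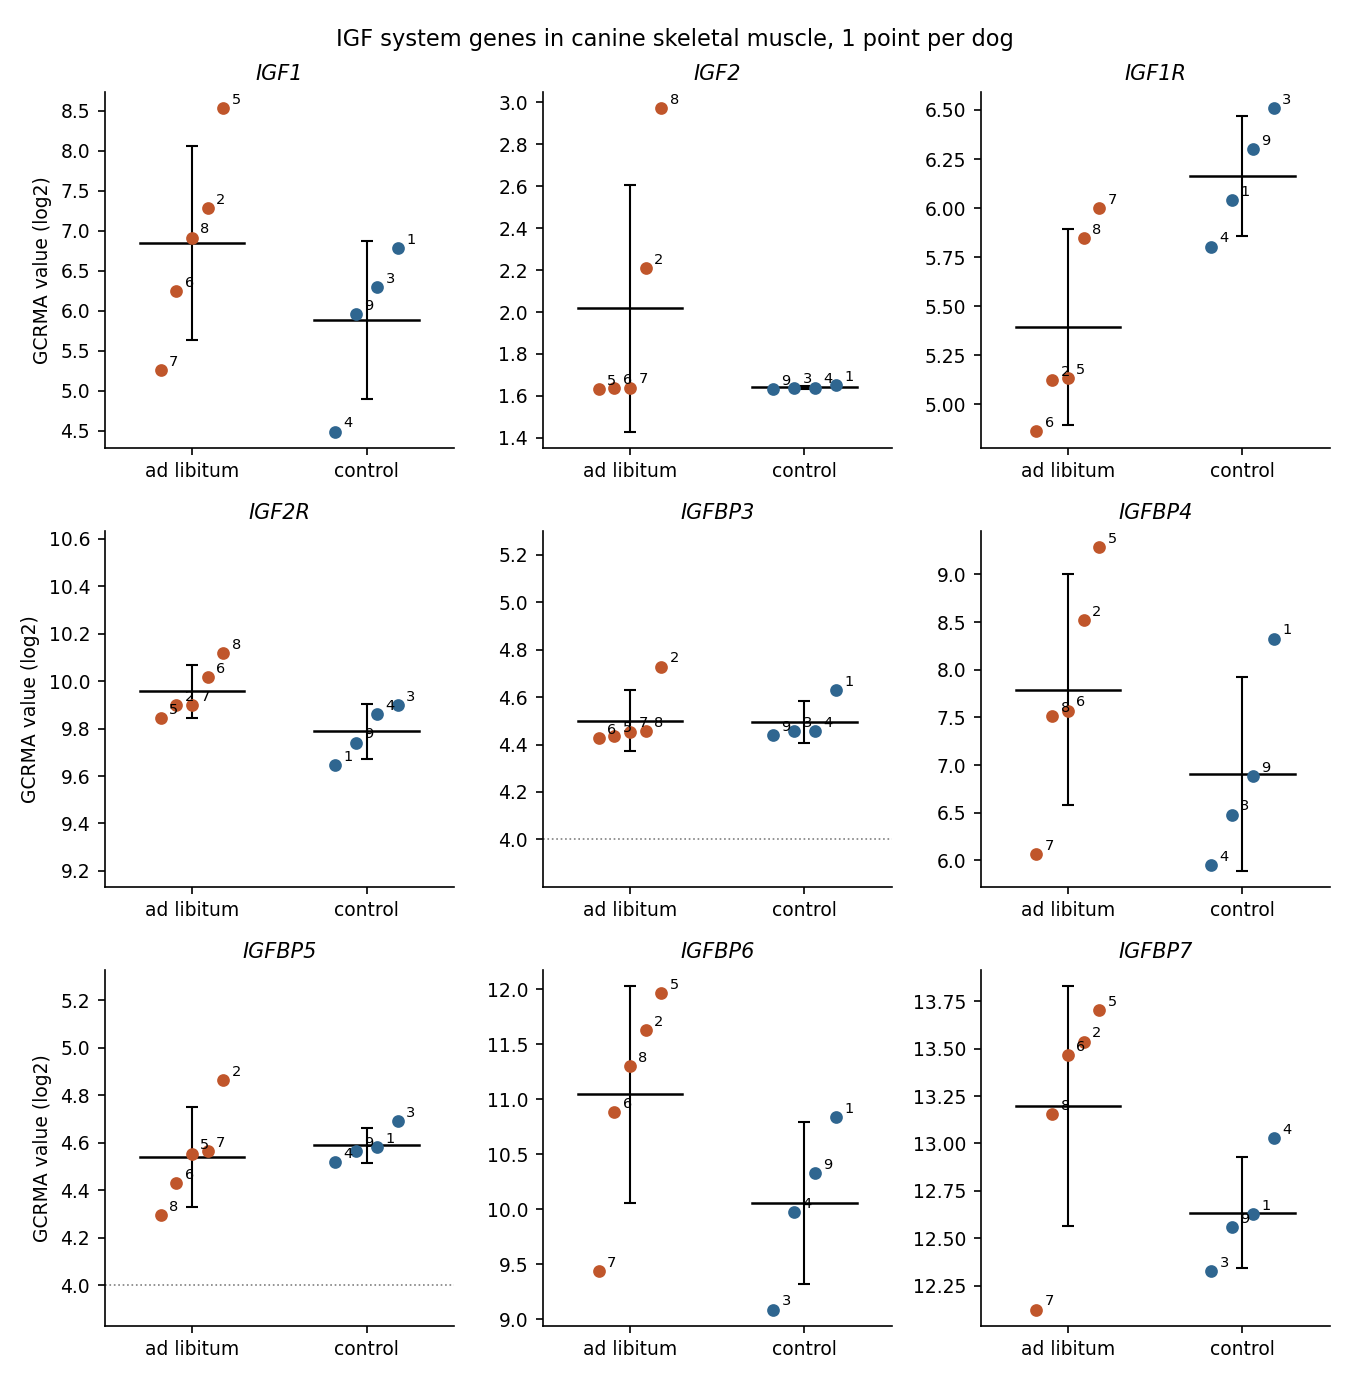
GCRMA values (log2) of the 9 IGF system genes by their main probe set, 1 point per dog with the dog's number, ad libitum left and control right, the horizontal line at the group mean and the bar at ± 1 SD. The dotted line marks the filter at log2 4. IGF1 ran from 5.26 to 8.53 in ad libitum dogs and from 4.49 to 6.79 in control dogs, while IGF2 stayed below 3 in all dogs.

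IGF1 varied widely from dog to dog and averaged more in ad libitum muscle. Its values were 7.28, 8.53, 6.24, 5.26 and 6.91 in ad libitum dogs 2, 5, 6, 7 and 8. In control dogs 1, 3, 4 and 9 they were 6.79, 6.30, 4.49 and 5.96. Dog 5 was the highest of all dogs and control dog 4 the lowest, and ad libitum dog 7 lay below 3 of the controls, so the groups overlapped. The ad libitum mean was 6.85 ± 1.22 (SD, n = 5) and the control mean 5.88 ± 0.988 (SD, n = 4), and their log2 difference was 0.96 (SE 0.66, 95% interval -0.52 to 2.45, limma, adjusted p = 0.819). An exact permutation test over all arrangements of the dogs gave p = 0.262 (two-sided), and 4 of 5 ad libitum dogs lay above the control mean. In bulk muscle, more transcript per cell and more of the cells that hold it cannot be told apart.

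A further probe set of IGF1 gave a difference of the same sign. Its ad libitum mean was 5.51 ± 1.18 (SD, n = 5) and its control mean 4.40 ± 0.556 (SD, n = 4), for a log2 difference of 1.11 (SE 0.57, limma, adjusted p = 0.796). Dog 5 held 7.55 there, while the other ad libitum dogs held 4.76 to 5.57 and the controls 3.62 to 4.80. The IGF1 difference of the main probe set was 0.54 without ad libitum dog 5 and 1.36 without dog 7, and it was 0.50 when control dog 4 was left out. The SD of IGF1 over the 9 dogs, 1.17, was at least as large as that of 98.1% of the tested probe sets.

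IGF2, the fetal and paracrine ligand, was below the filter on every array. Its only probe set held 2.21, 1.63, 1.64, 1.64 and 2.97 in ad libitum dogs 2, 5, 6, 7 and 8 and 1.65, 1.64, 1.64 and 1.63 in control dogs 1, 3, 4 and 9. In 7 of the 9 dogs the value lay within 0.05 of the median, and dogs 2 and 8 stood above the rest. The means were 2.02 ± 0.588 in ad libitum dogs (SD, n = 5) and 1.64 ± 0.0083 in control dogs (SD, n = 4). At this signal the array gives no usable level of IGF2. It was tested only with no filter, where the log2 difference was 0.38 (SE 0.28, limma, adjusted p = 0.670).

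IGF1R, the signalling receptor, had the lowest p of the 9 genes and a lower mean in ad libitum muscle. It held 5.12, 5.13, 4.86, 6.00 and 5.85 in ad libitum dogs 2, 5, 6, 7 and 8, against 6.04, 6.51, 5.80 and 6.30 in control dogs 1, 3, 4 and 9. Dogs 2, 5 and 6 lay below every control dog, while ad libitum dogs 7 and 8 lay above control dog 4. The means were 5.39 ± 0.500 (SD, n = 5) in ad libitum dogs and 6.16 ± 0.307 (SD, n = 4) in controls, a log2 difference of -0.77 (SE 0.26, 95% interval -1.36 to -0.18), or 0.586-fold. The unadjusted limma p was 0.016, rank 331 of the 18394 probe sets, and the adjusted p was 0.796. The exact permutation p was 0.0635 (two-sided), and 5 of 5 ad libitum dogs lay below the control mean.

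All 4 probe sets of IGF1R had lower means in ad libitum muscle, by differing amounts. The second averaged 4.51 ± 0.613 in ad libitum dogs (SD, n = 5) and 5.24 ± 0.514 in control dogs (SD, n = 4), which differ on the log2 scale by -0.72 (SE 0.34, limma, adjusted p = 0.796, exact permutation p = 0.0238). Its ad libitum dog 6 held 3.42, while the other ad libitum dogs held 4.76 to 4.80 and the controls 4.79 to 5.80. On this dim probe set 6 of the 9 values lay within 0.05 of the median. The difference there and its p rest mainly on ad libitum dog 6 and control dogs 1 and 9. The third differed by -0.27 (SE 0.22), again with dog 6 lowest at 3.41. The fourth was above log2 4 on 2 arrays, those of control dogs 1 and 9, and was not tested. Leaving out 1 dog at a time kept the difference of the main probe set between -0.92 and -0.64. Its unadjusted limma p was 0.00442 with ad libitum dog 7 left out and 0.0503 with control dog 3 left out.

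IGF2R, the clearance and lysosomal sorting receptor, varied little. Its main probe set held 9.90, 9.85, 10.02, 9.90 and 10.12 in ad libitum dogs 2, 5, 6, 7 and 8 and 9.65, 9.90, 9.86 and 9.74 in control dogs 1, 3, 4 and 9. Ad libitum dogs 6 and 8 lay above every control dog and the other three overlapped with them. The means of 9.96 ± 0.110 in ad libitum dogs (SD, n = 5) and 9.79 ± 0.116 in control dogs (SD, n = 4) differed by a log2 of 0.17 (SE 0.11, 95% interval -0.071 to 0.41, limma, adjusted p = 0.806). The other probe sets of IGF2R gave 0.17 (SE 0.12) and 0.16 (SE 0.15), and on all 3 probe sets each ad libitum dog lay above the control mean. A change in IGF2R transcript of the size seen for IGF1R, or larger, lies outside the interval of its main probe set.

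**Figure D2:**
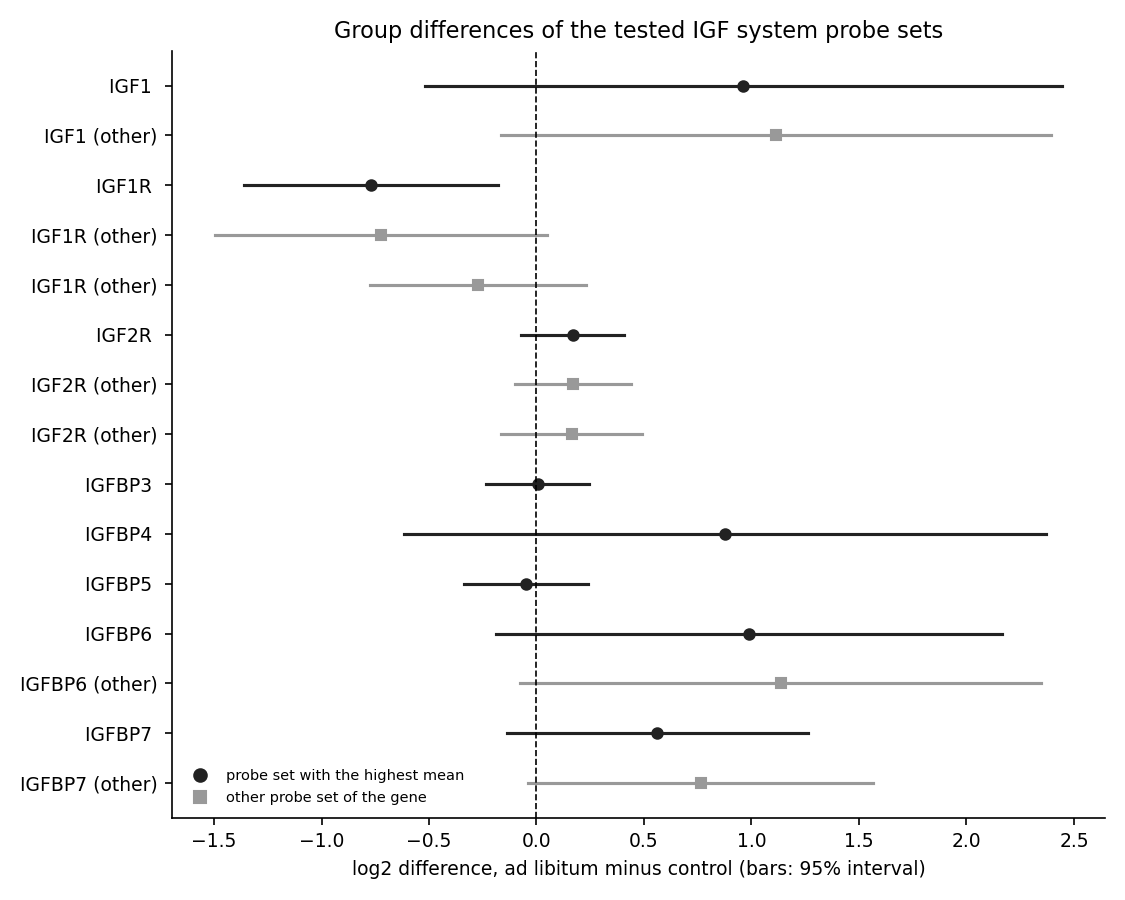
Log2 difference, ad libitum minus control, of the 15 tested probe sets of the IGF system genes with 95% intervals from limma; dark circles are the main probe set of a gene and grey squares its other probe sets. The interval of the main IGF1R probe set runs from -1.36 to -0.18, and those of the other 14 hold 0.

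Among the binding proteins, IGFBP4, IGFBP6 and IGFBP7 had higher means in ad libitum muscle, and dog 5 had the highest value of each. IGFBP4, which inhibits IGF action until proteases cut it, held 8.52, 9.28, 7.57, 6.07 and 7.51 in ad libitum dogs 2, 5, 6, 7 and 8. Control dogs 1, 3, 4 and 9 held 8.33, 6.48, 5.95 and 6.89. Control dog 1 exceeded all ad libitum dogs but dogs 2 and 5, and ad libitum dog 7 lay below every control but dog 4. The means were 7.79 ± 1.21 in ad libitum dogs (SD, n = 5) and 6.91 ± 1.02 in control dogs (SD, n = 4), a log2 difference of 0.88 (SE 0.66, 95% interval -0.61 to 2.37, limma, adjusted p = 0.836). Leaving out ad libitum dog 5 gave 0.51 and dog 7 gave 1.31, and leaving out control dog 4 gave 0.56 and dog 1 gave 1.35. The other 2 probe sets of IGFBP4 lay near 1.2 and 2.1 in every dog, below the filter.

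IGFBP6, which prefers IGF2 over IGF1 as its ligand, differed by nearly 1 log2 unit. It held 11.63, 11.97, 10.88, 9.43 and 11.30 in ad libitum dogs 2, 5, 6, 7 and 8, against 10.84, 9.09, 9.97 and 10.33 in control dogs 1, 3, 4 and 9. Of the ad libitum dogs, 4 lay above every control dog, and dog 7 lay below all controls but dog 3. The means were 11.04 ± 0.985 in ad libitum dogs (SD, n = 5) and 10.06 ± 0.737 in control dogs (SD, n = 4), a log2 difference of 0.99 (SE 0.52, 95% interval -0.19 to 2.16, limma, adjusted p = 0.796, exact permutation p = 0.143). The second probe set of IGFBP6 gave 1.14 (SE 0.54), with 4 ad libitum dogs above every control there too.

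IGFBP7, a matrix-associated protein of low affinity for IGFs that is made by vessel and stromal cells, showed a similar arrangement of dogs. It held 13.54, 13.70, 13.47, 12.12 and 13.15 in ad libitum dogs 2, 5, 6, 7 and 8 and 12.63, 12.33, 13.03 and 12.56 in control dogs 1, 3, 4 and 9. Again 4 ad libitum dogs lay above every control, and dog 7 lay below every control. The means were 13.20 ± 0.632 in ad libitum dogs (SD, n = 5) and 12.64 ± 0.292 in control dogs (SD, n = 4), a log2 difference of 0.56 (SE 0.31, 95% interval -0.14 to 1.26, limma, adjusted p = 0.796, exact permutation p = 0.127). The second probe set of IGFBP7 gave 0.76 (SE 0.36).

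Several differences were larger when ad libitum dog 7 was left out. The difference was then 1.39 for IGFBP6 and 0.83 for IGFBP7, with adjusted limma p of 0.234 and 0.149, and the number of IGF system genes at an unadjusted p under 0.05 was 5, namely IGF1, IGF1R, IGFBP4, IGFBP6 and IGFBP7. The share of all probe sets at that level was 11.7%. Without control dog 3 the number was 0 and the share 4.47%, and the IGFBP6 difference was 0.66.

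IGFBP3 and IGFBP5 gave flat signals close to the filter. IGFBP3, the main carrier of IGFs in blood, held 4.43 to 4.73 in ad libitum dogs and 4.44 to 4.63 in control dogs, and 7 of the 9 values lay within 0.05 of the median. Its log2 difference was 0.0049 (SE 0.11, 95% interval -0.24 to 0.25, limma, adjusted p = 0.996). IGFBP5, the binding protein best known from differentiating muscle cells, held 4.29 to 4.86 in ad libitum dogs and 4.52 to 4.69 in control dogs, a difference of -0.048 (SE 0.13, 95% interval -0.34 to 0.24, limma, adjusted p = 0.955). Its other probe sets were below the filter, one at 0.90 to 0.91 in every dog and one at 2.87 to 4.57. Dim probe sets take nearly constant GCRMA values, so these narrow intervals describe the signal and do not show that the transcripts were equal. On the assembly UU_Cfam_GSD_1.0, a protein-coding neighbour of IGFBP3 is IGFBP1 and that of IGFBP5 is IGFBP2. Neither neighbour passed the filter, with IGFBP1 at means of 2.98 in both groups and IGFBP2 at an ad libitum mean of 3.55 ± 0.401 (SD, n = 5) against a control mean of 3.42 ± 0.0268 (SD, n = 4).

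Several of the genes varied together over the dogs. Of the 28 pairs among the 8 tested genes, 4 passed an adjusted p of 0.05 for Pearson's r over the 9 dogs by exact permutation of the pairings. IGF1 and IGFBP4 had r = 0.926 (rho = 0.883, exact permutation p = 0.000179 and 0.00307, adjusted p = 0.00501 and 0.0421). Dogs 5 and 2 were the highest and control dog 4 the lowest in both. IGFBP4 and IGFBP6 had r = 0.891 (rho = 0.867, exact permutation p = 0.00189 and 0.00451, adjusted p = 0.0265 and 0.0421). IGFBP6 and IGFBP7 had r = 0.860 (rho = 0.917, exact permutation p = 0.00426 and 0.00131, adjusted p = 0.0298 and 0.0367). IGF1R ran against IGFBP7, with r = -0.876 (rho = -0.817, exact permutation p = 0.00289 and 0.0108, adjusted p = 0.027 and 0.0754).

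Without the 2 dogs farthest from the median of the first gene, these 4 pairs had r = 0.870, 0.878, 0.717 and -0.850. With each gene centred on its group means they had r = 0.911, 0.874, 0.807 and -0.842. Permuted within groups, 0 of the 28 pairs passed after adjustment, the lowest adjusted p being 0.0648. IGF1 and its receptor IGF1R had r = -0.427 (rho = -0.267, exact permutation p = 0.254 and 0.493, adjusted p = 0.547 and 0.921).

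**Figure D3:**
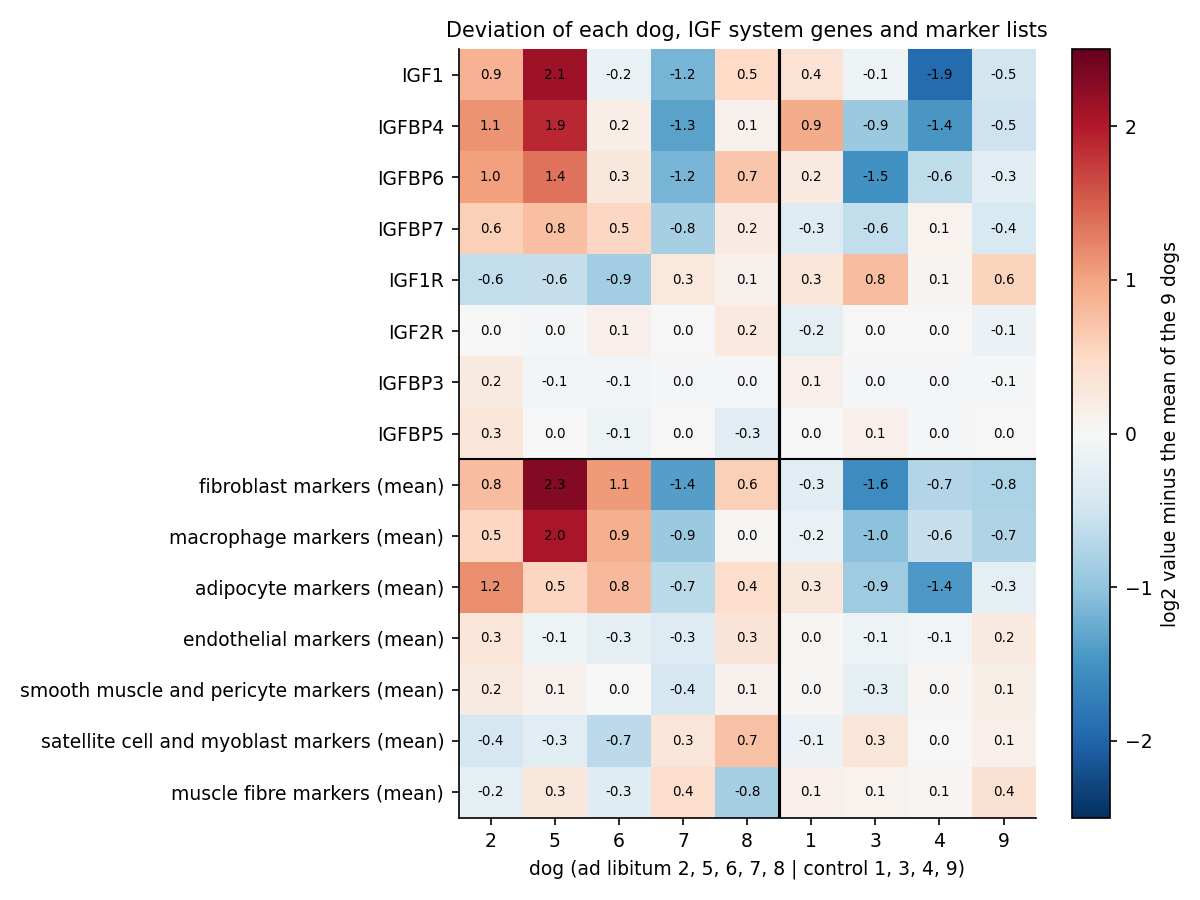
Deviation of each dog from the mean of the 9 dogs (log2), for the 8 tested IGF system genes above and for the mean of each cell type marker list below, with ad libitum dogs 2, 5, 6, 7 and 8 left of the line and control dogs 1, 3, 4 and 9 right of it. Red is above and blue below the 9-dog mean. Ad libitum dog 5 is high and ad libitum dog 7 low for IGF1, IGFBP4, IGFBP6 and IGFBP7 and for the fibroblast and macrophage lists.

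Markers of fibroblasts, macrophages and adipocytes had higher means in ad libitum muscle. All 11 measured fibroblast markers had higher means in ad libitum muscle, and their mean level ran from 7.39 to 11.06 in ad libitum and from 7.20 to 8.51 in control dogs, with TCF21 below the filter. All 7 measured macrophage markers had higher means, at 5.05 to 8.02 in ad libitum and 4.94 to 5.80 in control dogs, with CD68, CSF1R, TYROBP, AIF1 and MSR1 below the filter. All 11 adipocyte markers had higher means, at 7.05 to 8.88 in ad libitum and 6.28 to 8.00 in control dogs. The part of these cells in the IGF results was not tested beyond the relations and covariates given next. Higher means made up 49.6% of all tested genes. The markers within a list differed by unequal amounts. Fibroblast markers ran from 0.12 (PDGFRA) to 3.27 (COL3A1) and macrophage markers from 0.22 (C1QA) to 2.05 (LAPTM5). Adipocyte markers ran from 0.077 (THRSP) to 3.8 (PCK1). The list means had exact permutation p of 0.0714 for fibroblast, 0.0794 for macrophage and 0.0714 for adipocyte markers. Endothelial and smooth muscle lists differed by -0.038 and 0.022.

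In 56 relations between the 8 genes and the 7 marker lists, added after the values were seen, 11 passed an adjusted p of 0.05 for Pearson's r and 0 passed when permuted within groups. IGFBP6 followed the fibroblast mean with r = 0.927 (rho = 0.933, exact permutation p = 0.00038 and 0.00075, adjusted p = 0.0142 and 0.0105). IGFBP7 followed it with r = 0.922 (rho = 0.950, exact permutation p = 0.000634 and 0.000353, adjusted p = 0.0142 and 0.00988). IGF1R ran against it with r = -0.840 (rho = -0.833, exact permutation p = 0.00492 and 0.00827, adjusted p = 0.0344 and 0.0579). Without ad libitum dogs 5 and 6, the farthest from the median of the fibroblast mean, these 3 r were 0.980, 0.888 and -0.773. For IGF1 and the fibroblast mean r was 0.765 (rho = 0.633, exact permutation p = 0.0153 and 0.076, adjusted p = 0.0603 and 0.224). These relations were not particular to fibroblasts. The macrophage mean gave r of 0.860 for IGFBP6, 0.884 for IGFBP7, -0.8455 for IGF1R and 0.770 for IGF1. Their adjusted exact permutation p were 0.0298, 0.0142, 0.0305 and 0.0603. IGFBP4 passed with the fibroblast, macrophage and adipocyte means, at r = 0.845, 0.843 and 0.840 (adjusted exact permutation p = 0.034, 0.031 and 0.035). With the adipocyte mean IGFBP6 passed too (r = 0.834), while IGF1 (r = 0.758), IGFBP7 (r = 0.668) and IGF1R (r = -0.693) did not. IGF2R, IGFBP3 and IGFBP5 passed with no list. IGFBP6 also passed with the smooth muscle and pericyte mean (r = 0.796), where r was 0.468 without ad libitum dog 7 and control dog 3.

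With the fibroblast mean as a covariate in the limma fit, the group difference changed sign for 5 of the 8 genes. It was -0.17 (SE 0.64) for IGF1, -0.47 (SE 0.50) for IGFBP4, -0.15 (SE 0.32) for IGFBP6 and -0.094 (SE 0.21) for IGFBP7, and IGFBP3, near 0 in both fits, was at -0.011. That of IGF1R was -0.33 (SE 0.26). IGF2R kept its size, at 0.21 (SE 0.14). The marker means did not pass their own tests between the groups, and effects of feeding and of cell makeup on these genes cannot be told apart in 9 dogs. Whether a marker mean follows the number of cells or the level of transcript per cell was not tested.

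**Figure D4:**
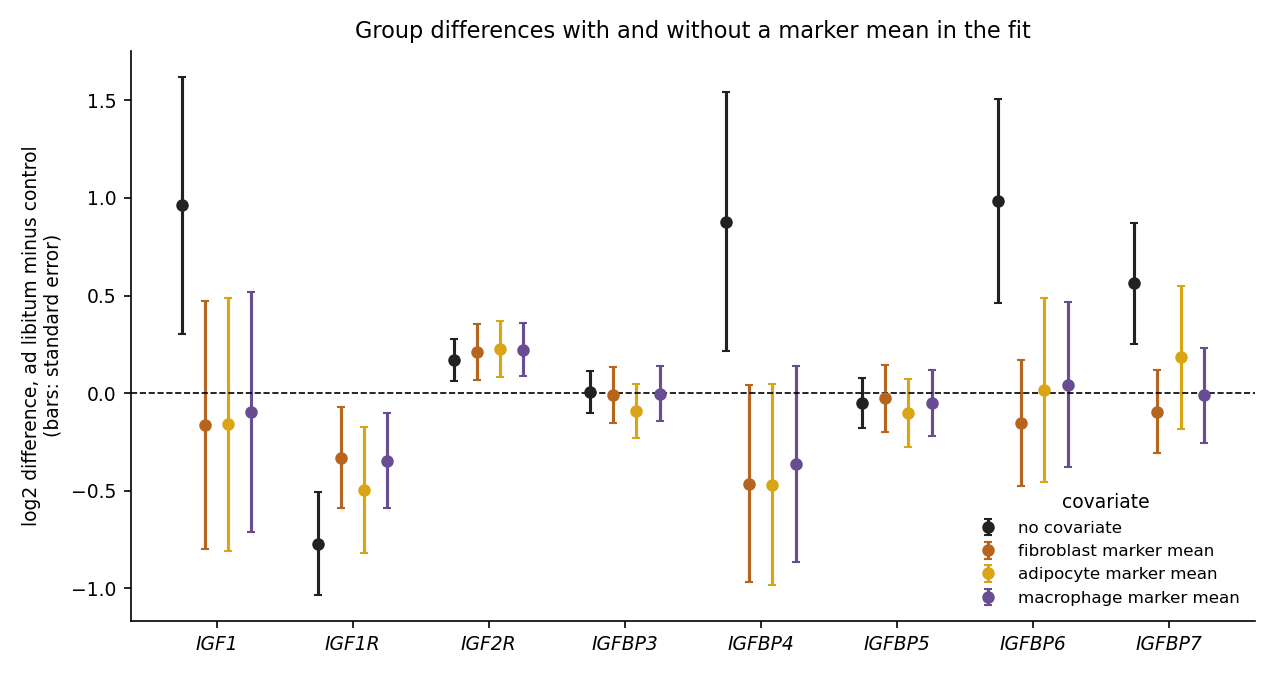
Log2 difference, ad libitum minus control, ± standard error for the 8 tested IGF system genes, fitted without a covariate and with the mean of the fibroblast, adipocyte or macrophage markers. IGF1 lies at 0.96 without a covariate and at -0.17, -0.16 and -0.096 with them, and IGF1R at -0.77 and at -0.33, -0.49 and -0.35.

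The other genes of the IGF pathway were read from 8 lists with 77 genes on the array, of which 49 were tested. None passed an adjusted limma p of 0.05. At an unadjusted p under 0.05, 3 had higher and 4 lower means in ad libitum muscle, 14.3% of the 49, against 6.23% of the 7534 genes tested. Without the growth hormone receptor list, whose result was known when the lists were written, it was 4 of 42, or 9.52%. By main probe set, the groups did not overlap for 5 of the 49 genes and for 2 of the 42, where 1.46% of all genes had such groups. CISH, which is in the growth hormone list, passed the filter through its higher group alone and so had to differ.

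Of the proteins that carry or cut IGF ligands, few gave signal. IGFBP1, IGFBP2 and IGFALS, the partner of IGFBP3 in blood, were below the filter, as were the IGFBP4 protease PAPPA, the related PAPPA2, and STC1 and STC2, which inhibit them. The secreted serine protease HTRA1, which can cleave binding proteins, averaged 8.99 ± 1.17 in ad libitum dogs (SD, n = 5) and 7.53 ± 0.505 in control dogs (SD, n = 4), which differ on the log2 scale by 1.46 (SE 0.56, limma, adjusted p = 0.796). Its arrangement of dogs was similar to that of IGFBP6, with dog 5 highest at 10.52 and ad libitum dog 7 at 7.27 below all controls but dog 3. The metalloprotease ADAM9 differed by -0.30 (SE 0.23). The matrix proteins CCN1 and CCN2, once counted as IGF binding protein relatives, differed by -0.75 (SE 0.43) and 0.78 (SE 0.72), and CRIM1 by -0.091 (SE 0.38). CCN2 was at 0.41 without ad libitum dog 5 and at 1.42 without dog 7. All 3 IGF2 mRNA-binding proteins were below the filter.

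Among receptor adaptors, SHC1 had a higher mean and most others had lower ones in ad libitum muscle. Of 11 tested members 2 had higher and 9 lower means, with a median log2 difference of -0.18, and 1 had an unadjusted p under 0.05. SHC1, the adaptor that links receptors to RAS, averaged 8.84 ± 0.343 in ad libitum dogs (SD, n = 5) and 8.28 ± 0.166 in control dogs (SD, n = 4). It held 8.54 to 9.36 in ad libitum dogs and 8.05 to 8.45 in control dogs, so the groups did not overlap, and the log2 difference was 0.56 (SE 0.18, limma, unadjusted p = 0.0131, adjusted p = 0.796). Its other 4 tested probe sets gave 0.12 to 0.65, and on some of them the groups overlapped. IRS1, the main substrate of the receptor, differed by -0.35 (SE 0.19), the docking protein GAB1 by -0.48 (SE 0.23) and the ubiquitin ligase NEDD4 by -0.39 (SE 0.25).

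In the PI3K-AKT branch 3 tested members had higher and 9 lower means, with a median log2 difference of -0.15. INPPL1, the lipid phosphatase SHIP2 that removes the PI3K product, held 9.41 to 9.61 in ad libitum dogs and 8.36 to 9.34 in control dogs. These groups did not overlap either, and the log2 difference was 0.55 (SE 0.19, limma, unadjusted p = 0.0149, adjusted p = 0.796), or 0.36 without control dog 4. The other tested probe set of INPPL1 gave 0.56 (SE 0.30). Its groups overlapped, with control dog 3 at 5.90 and the ad libitum dogs at 5.80 to 6.15. PIK3CA and PIK3CB, catalytic subunits, differed by -0.46 (SE 0.31) and -0.17 (SE 0.17), and TSC1, an inhibitor of mTOR, by -0.25 (SE 0.22). Without ad libitum dog 2 PIK3CA was at -0.20 and PIK3CB at -0.043, and without control dog 4 TSC1 was at -0.0048, with -0.035 on its other probe set. In the RAS-ERK branch, 3 of 8 had higher means and the median was -0.11. ARAF differed by -0.40 (SE 0.17, limma, unadjusted p = 0.0412), or by -0.27 without control dog 3. MAP2K2, a kinase that activates ERK, differed by -0.35 (SE 0.19), and the ribosomal S6 kinases RPS6KA3 and RPS6KA1 by -0.57 (SE 0.34) and 0.40 (SE 0.27). Without control dog 3 MAP2K2 was at -0.18. RPS6KA3 was at -0.32 without ad libitum dog 2, and RPS6KA1 at 0.17 without ad libitum dog 5. Of the genes that share mannose 6-phosphate sorting with IGF2R, 5 of 6 had higher means and the median was 0.12. GNPTG, a subunit of the enzyme that starts the tag, differed by 0.44 (SE 0.25), with -0.019 and -0.021 on its other probe sets. GGA2 and GGA3, adaptors of the sorting vesicles, differed by 0.20 (SE 0.25) and -0.17 (SE 0.13), and GNPTAB by 0.15 (SE 0.21). The second tested probe set of GGA2 went the other way, at -0.13, and without control dog 9 the main one was at 0.077. GNPTAB was at 0.047 without control dog 3.

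Growth hormone stimulates IGF1 transcription through its receptor GHR and STAT5B, and induces the feedback inhibitors CISH and SOCS2. CISH lay below log2 4 in all 5 ad libitum dogs and at 6.16 to 7.33 in control dogs, and passed the filter through the control dogs alone. Set against log2 4, its difference of -2.97 is a bound and is given without a test. SOCS2 had groups that did not overlap, with a log2 difference of -2.31 (SE 0.41, limma, adjusted p = 0.796), while IGF1 had a higher mean in the ad libitum dogs. STAT5B held 8.17 to 8.85 in ad libitum dogs and 8.92 to 9.18 in control dogs, a difference of -0.40 (SE 0.16, limma, unadjusted p = 0.0296, adjusted p = 0.796). The other tested probe set of STAT5B gave -0.39 (SE 0.22). Its groups overlapped, at 7.52 to 8.58 in ad libitum dogs and 8.34 to 8.94 in control dogs. GHR held 10.15, 10.36, 10.95, 11.30 and 11.22 in ad libitum dogs 2, 5, 6, 7 and 8 and 11.15 to 11.27 in control dogs, a difference of -0.43 (SE 0.24), or -0.27 without ad libitum dog 2. Dogs 2 and 5, which had the lowest GHR, had the highest IGF1, but dog 6, next lowest in GHR, ranked 6 of 9 for IGF1. The control dogs differed little in GHR while their IGF1 ran from 4.49 to 6.79. A relation of GHR and IGF1 over the dogs was not tested. PTPN6, a phosphatase found mostly in blood cells, differed by 0.86 (SE 0.46), or by 0.43 without ad libitum dog 5.

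**Figure D5:**
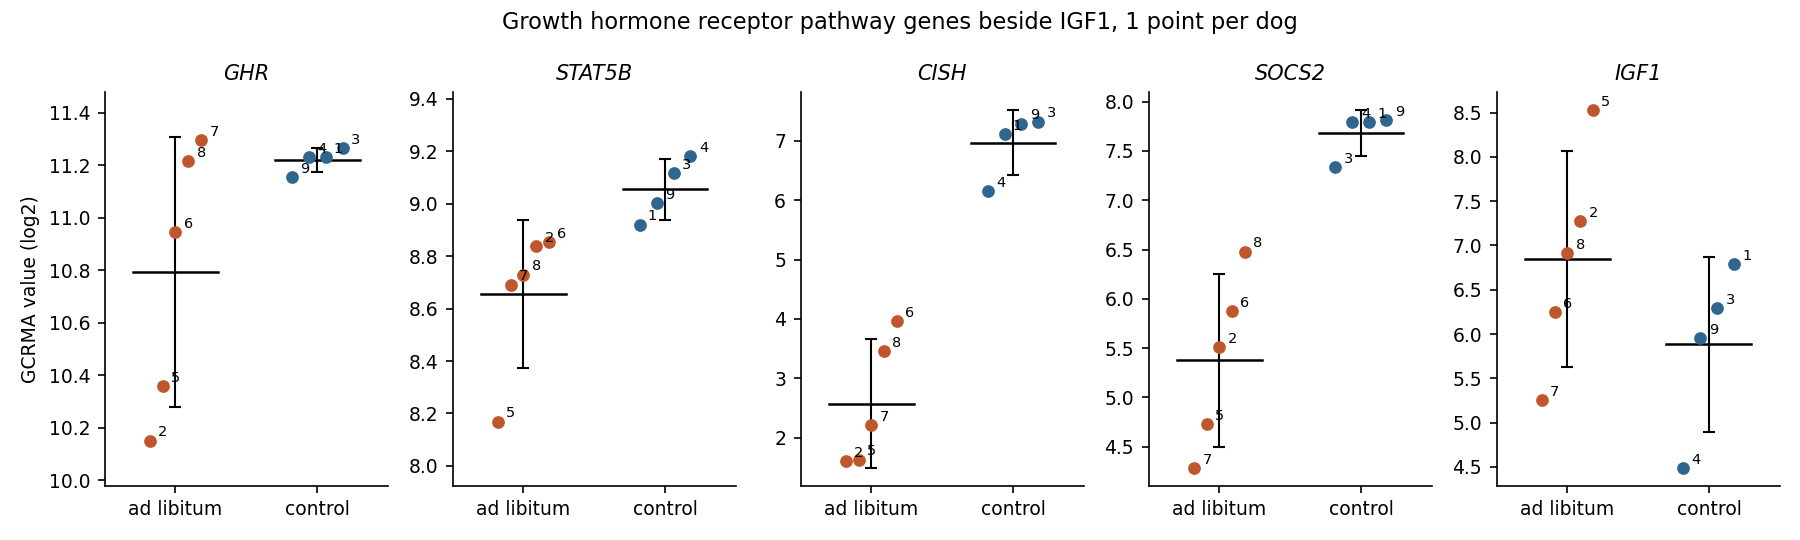
GCRMA values (log2) of GHR, STAT5B, CISH, SOCS2 and IGF1, 1 point per dog with the dog's number, ad libitum left and control right, the horizontal line at the group mean and the bar at ± 1 SD. On the main probe sets shown, CISH, SOCS2 and STAT5B lie lower in all 5 ad libitum dogs than in any control dog, CISH below log2 4 there, and IGF1 overlaps. The other tested probe set of STAT5B, not shown, overlaps.

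The genes whose values followed IGF1 most closely over the 9 arrays, among 7533 others, were LRRC8C (r = 0.981, rho = 0.967), WWTR1 (r = 0.977, rho = 0.933) and PIEZO1 (r = 0.953, rho = 0.983). For IGF1R they were FHL3 (r = 0.942, rho = 0.967), EZH1 (r = 0.912, rho = 0.800) and ZC3HC1 (r = 0.911, rho = 0.917). These are the highest of 7533 coefficients over the same 9 dogs, so no p is given. For IGF2 they were RTKN, SDSL and MED9 (r = 0.968 to 0.975, rho = 0.424 to 0.879), and that likeness rests on dogs 2 and 8 at signals below the filter.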

How the data were processed

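Total RNA of 9 dog muscles was extracted with Trizol and labelled with a 3' amplification kit for 1 Affymetrix canine array each, per the labels' protocols. The authors computed the deposited values with GCRMA, as the submitters' processing notes name it without a version or settings, and these were taken as log2 from their range, 0.652 to 16.6. GCRMA in its usual form makes the arrays' distributions alike, and a change common to most transcripts would then be lost. Groups came from the treatment labels and replicate numbers from the animal numbers. The labels name no batch.

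Of 43035 probe sets, 111 controls were left out, and those above log2 4 on at least 4 arrays were tested with limma 3.58.1 (R 4.3.3; lmFit, eBayes, two-sided, no covariate). P-values were adjusted by Benjamini-Hochberg over all 18394. Precision is limited by the 9 arrays, with a median standard error of 0.197. Symbols came from the platform annotation of 2016. The Entrez IDs of 8 of the 9 genes were found in the gene table, and that of IGFBP3 was not. Single values were also tested by exact permutation of the dogs, and relations by exact permutation of 362880 pairings. Genes of a pathway list were named by the lowest unadjusted p, up to 4 a list, with CISH, SOCS2 and GHR besides, and the 3 genes of highest r were named for IGF1, IGF2 and the gene with the lowest p. Limma was tested on simulated data, drawn as independent normal values for each probe set. Such data do not hold the variation that probe sets share within a dog. The exact test of relations was checked on a perfect relation only, and that of group differences was not checked. The IGF genes, the lists and the alternatives were chosen with earlier results of these data known. Alternatives were other filters, a floor, normalizations, variance models, marker covariates, other probe sets and leaving out each dog.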

Additional observations from a re-analysis of the deposited data

Results flagged for a closer look

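In 7 of the 56 groups of values checked (21 probe sets and 7 marker means in 2 feeding groups), 1 dog lay far from the others of its group. Chance alone gives about 1 such group in 20 where values are independent and normally distributed. Dim probe sets with near-constant values and several probe sets of the same gene do not meet this, so the number found is not read against that rate. On the second probe set of IGF1, ad libitum dog 5 held 7.549, while the other ad libitum dogs lay between 4.76 and 5.57. On 2 other probe sets of IGF1R, ad libitum dog 6 held 3.415 and 3.409, against 4.76 to 4.80 and 4.30 to 4.57 in the other ad libitum dogs. The main IGF1R probe set had the same dog lowest, at 4.86. On the IGFBP3 probe set, ad libitum dog 2 held 4.729 and control dog 1 held 4.63, while the remaining dogs lay between 4.43 and 4.46. On an IGFBP5 probe set that did not pass the filter, ad libitum dog 5 held 4.573 and control dog 1 held 3.476, against 2.87 to 3.29 and 2.88 to 2.91 in the others of their groups. The causes were not tested.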

How the results depend on the processing

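No IGF system gene passed the adjusted threshold under any of the 185 alternatives run on the 8 tested genes, and 21 of these turned a sign. Some of the 185, the probe sets of IGF1R, IGFBP4 and IGFBP5 below the filter, had a difference but no p and could not pass. With the adipocyte, fibroblast and macrophage covariates IGF1 differed by -0.16, -0.17 and -0.096 and IGFBP4 by -0.47, -0.47 and -0.36. With the fibroblast covariate IGFBP6 differed by -0.15 and IGFBP7 by -0.094, and with the macrophage covariate, added after seeing the data, IGFBP7 differed by -0.011. IGFBP3 differed by -0.089, -0.011 and -0.0041 with the 3 covariates and by -0.022 with array weights. A dim probe set of IGFBP4 gave -0.0051, and IGFBP5 differed by 0.073 as the mean of its probe sets and by 0.27 on one of them. Leaving out 1 dog at a time gave IGFBP3 from -0.052 to 0.050, IGFBP5 from -0.13 to 0.013 and CRIM1 from -0.40 to 0.076. IGF1R and IGF2R kept their signs throughout, from -0.92 to -0.27 and from 0.12 to 0.23. Over all probe sets the number called became 1 with the floor at log2 4 (CISH, whose ad libitum values then had no spread, so that this is no valid test) and ran from 0 to 1 with a dog left out, the 1 being LOC489640 without ad libitum dog 8. With no filter the median difference was -0.015 for the IGFBP proteases and -0.0062 for the growth hormone list, since dim genes entered. With a dog left out the receptor adaptors ran from -0.33 to -0.096. The growth hormone list ran from -0.45 to -0.27 over 7 genes with an ad libitum dog left out. With a control dog left out it ran from -0.22 to -0.14 over 6 genes, since CISH then failed the filter. Those medians are of a different set of genes. The lowest unadjusted count of all probe sets was 454 and the highest 2149, against 1088. CISH could not be fitted with a control dog left out, since only 4 arrays passed the filter. Of the other named pathway genes, most moved by over 1.5 times with some dog left out, while HTRA1, IRS1, SHC1, STAT5B and SOCS2 did not. Other causes of these shifts were not tested. No paired analysis was possible because no animal number is shared between the groups. Signal limits IGF2, IGFBP3 and IGFBP5, which lie at or near background.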

Other observations

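IGF1R was also set against the 3 measured satellite cell and myoblast markers, CDH15, MYOD1 and NCAM1. Their mean followed IGF1R with r = 0.731 (rho = 0.711, exact permutation p = 0.0255 and 0.0377, adjusted p = 0.0841 and 0.162), and r was 0.848 without ad libitum dogs 6 and 8. PAX7, MYF5 and MYOG were below the filter. IGF2R ran against the muscle fibre mean with r = -0.738 (rho = -0.661, exact permutation p = 0.0252 and 0.0607, adjusted p = 0.0841 and 0.200), and that relation rests on ad libitum dogs 6 and 8, since r was -0.201 without them. Of the muscle fibre markers, MYH1 and ACTN3 had the widest ranges over the dogs, 4.79 and 4.30. ACTA1, MB, TTN and MYH2 had the narrowest, 0.098 to 0.304. MYH1 held 10.94 and 10.64 in dogs 6 and 8, so the mean does not measure fibre content alone.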
